A study of Mus musculus with 13 samples.

Results

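The genes described are 9 transporters that carry bile acids and other organic anions across the membranes of liver cells, measured in liver tumours of mir-122 knockout mice and in control livers. They were taken by name: 4 uptake carriers (Slc10a1, Slco1a1, Slco1a4 and Slco1b2), 3 canalicular exporters (Abcb11, Abcb4 and Abcc2) and 2 basolateral exporters (Abcc3 and Abcc4). All 9 were among the 18193 genes measured, and each is read through its probe set with the highest mean over all 13 arrays. The mice were of the mixed B6/129 background. The control livers were wild-type livers, 2 from mice aged 11 months and 3 from mice aged 14 months. The tumours came from mir-122 knockout mice, 3 at 11 months and 5 at 14 months. Each sample was 1 one-colour array, and replicates are called below by age and number, as in 14-month tumour 4.

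A hepatocyte draws bile acids and organic anions from the blood through carriers in its basolateral membrane: the sodium-dependent carrier Slc10a1 takes up conjugated bile salts, and the Slco carriers take up bile acids, bilirubin, hormones and drugs without sodium. It secretes them across the canalicular membrane into bile through ATP-driven exporters. Basolateral exporters can return them to the blood, a route known to be raised in cholestasis, when bile flow is blocked.

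The array values were log2 levels, so 1 unit is a 2-fold difference, and the median array value lay between 5.13 and 5.22 on every array. Several features of the samples bear on the results below. The 11-month control 1 and 14-month control 3 were nearly identical, with 58 probe sets that differed more than 2-fold between them, against 485 to 1310 in the other pairs of controls. Whether they hold RNA of 1 mouse was not tested; if they do, there are 4 separate controls and 1 of the 2 ages is wrong. The 11-month tumours 1 and 2 and 14-month tumour 4 stood apart from the other 5 tumours on the first 2 principal components. The components were taken over all probe sets except the array controls. Leaving these 3 tumours out is a choice made after seeing these data. Whether each tumour had its own mouse is not stated, so p-values measure only the spread between these samples, and 14-month tumours 1 and 2 have titles that differ by a single digit. No non-tumour liver of knockout mice was analysed here, so tumour and genotype cannot be told apart, and the deletion itself was not checked on these arrays. The 10 measured hepatocyte markers had a mean level of 12.65 to 13.02 in the tumours and 12.96 to 13.25 in the controls, and none lay below the median gene level on every array.

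With the 2 ages weighted equally, 2 uptake carriers fell and 1 basolateral exporter rose, and no canalicular exporter passed the test. In limma with Benjamini-Hochberg adjustment over all 18193 genes at 0.05, 3 of the 9 members passed: Slco1a1 and Slc10a1 fell and Abcc4 rose. The background for that count is that 20.1% of all genes passed, 10.3% higher and 9.81% lower in tumours. By role, 2 of 4 uptake carriers fell, 0 of 3 canalicular exporters passed (1 of 3 at an unadjusted limma p under 0.05), and 1 of 2 basolateral exporters rose. The median log2 fold change was -3.34 over the uptake carriers, -0.75 over the canalicular exporters and 1.22 over the basolateral exporters, against -0.05 over all genes. Tumours and controls did not overlap for Slco1a1 and Slc10a1, lower in all 8 tumours as were 5.07% of all genes, nor for Abcc4, higher in all 8 tumours as were 6.22% of all genes.

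**Figure D1:**
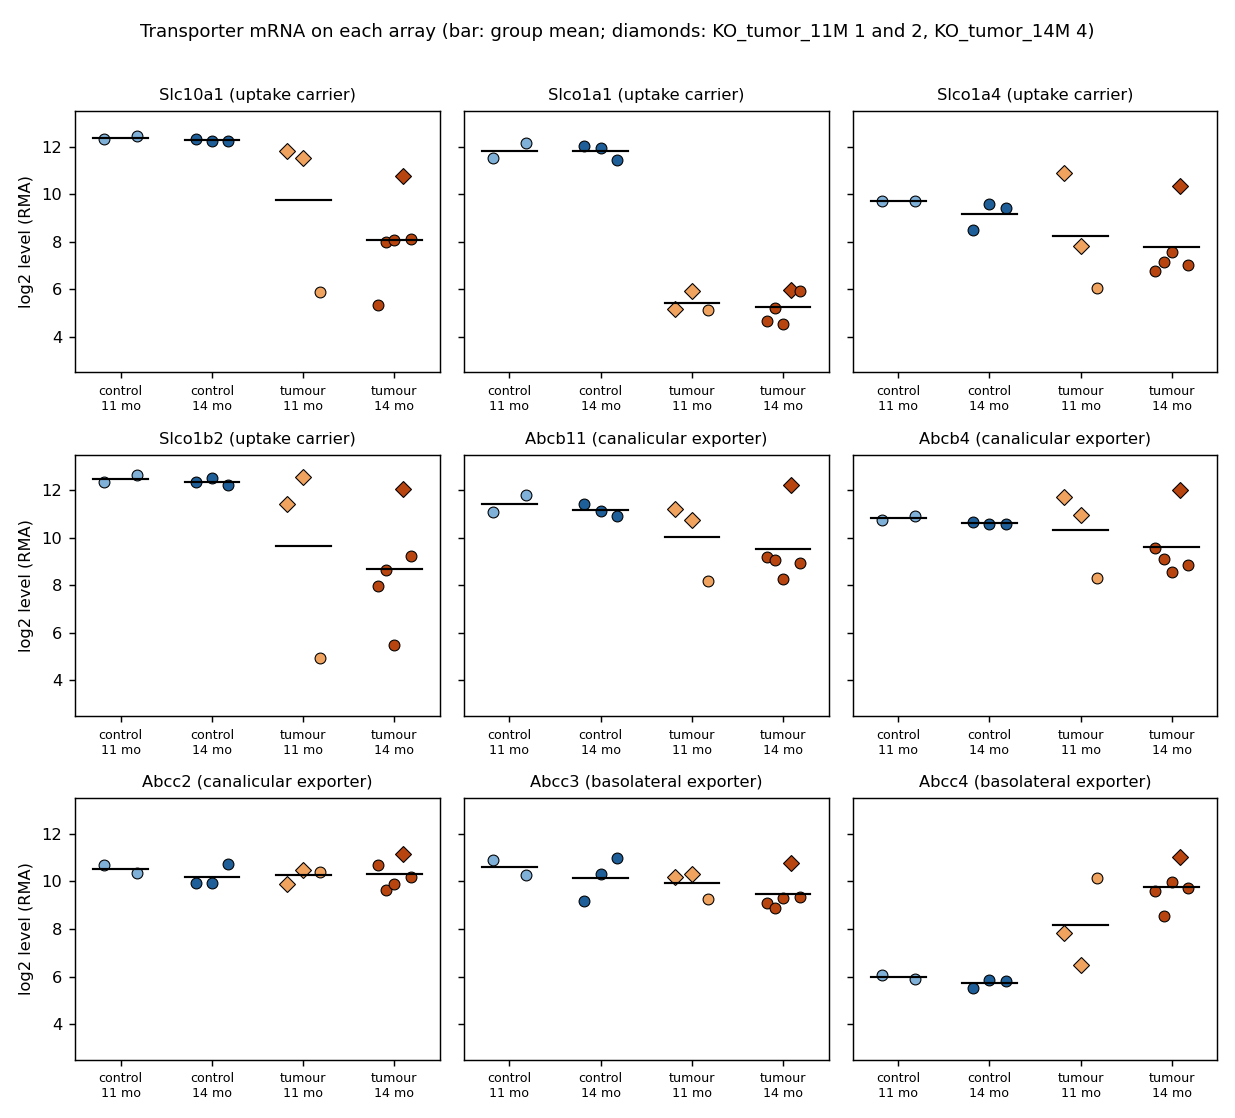
Log2 level of each of the 9 transporters (vertical axis) on the 13 arrays, by group; points are single arrays, bars are group means and diamonds mark 11-month tumours 1 and 2 and 14-month tumour 4. Slco1a1 lies between 4.54 and 5.96 in every tumour and above 11.4 in every control, while Slc10a1 and Slco1b2 spread over several log2 units among the tumours.

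Slco1a1 encodes an organic anion carrier of the hepatocyte's basolateral membrane and is known for higher expression in male than in female mouse liver. Its log2 level in the controls was 11.51 and 12.13 at 11 months and 12.04, 11.95 and 11.43 at 14 months. In the tumours it was 5.16, 5.93 and 5.13 at 11 months and 4.66, 5.22, 4.54, 5.96 and 5.91 at 14 months. All 8 tumours were thus low and none came near a control. The log2 fold change was -6.48 (SE 0.29, 95% interval -7.11 to -5.85), an 89.3-fold lower level with a limma adjusted p of 1.11e-06. The fall was -6.41 at 11 months (limma adjusted p = 0.000121; 0.0738 when only the 5 arrays of that age were fitted) and -6.55 at 14 months (8.8e-06). A second probe set of the gene gave -6.61. As these are whole samples, transcript per hepatocyte was not measured, here and below. The 10 measured hepatocyte markers had a median log2 fold change of -0.09 with the ages combined. How far the number of hepatocytes entered the transporter values was not tested. Every tumour value of Slco1a1 was below the median level of all genes, 6.20, and the values carry no detection call, so whether the remaining signal was above background was not tested. The labels used here give no sex; the X-inactivation transcript Xist lay between 4.46 and 5.20 on all 13 arrays, below the median gene level, and the Y-linked Eif2s3y between 7.82 and 9.45, above it.

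The promoter of Slco1a1 is shown because this gene had the largest fall of the 9. The promoter sequences here are the RefSeq windows of 300 bases around a transcript start, from 250 before to 50 after it, on build GRCm38.p6 and written 5′ to 3′ along the gene; at least 1 was given for 8 of the 9 members, all but Abcc3. Capitals mark matches to 4 motifs searched on both strands: the antioxidant response element core TGACNNNGC (held by 12.4% of all 32851 promoters), the inner core TCANTGA of the inverted repeat bound by the bile acid receptor (7.14%), an HNF4A core CAAAGTC (4.44%) and a STAT5 site TTCNNNGAA (8.3%). TCANTGA and TTCNNNGAA read the same on both strands, and no match shown overlaps another. The Slco1a1 window (chr6:141946913-141947212, minus strand) held 0 of these motifs, which says only that these letters are not in it, and so did the windows of Slco1a4 and Abcb4.
Slco1a1: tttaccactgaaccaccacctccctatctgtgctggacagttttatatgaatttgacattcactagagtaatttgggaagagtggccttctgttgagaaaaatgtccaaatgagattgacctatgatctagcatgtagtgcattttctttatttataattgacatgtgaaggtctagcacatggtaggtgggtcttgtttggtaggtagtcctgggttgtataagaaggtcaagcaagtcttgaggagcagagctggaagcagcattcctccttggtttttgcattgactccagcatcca

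Slc10a1, the main sodium-dependent bile salt carrier of the hepatocyte, also lay below the controls in all 8 tumours, but to very different depths. In the controls its log2 level was 12.30 and 12.44 at 11 months and 12.32, 12.25 and 12.24 at 14 months. In the tumours it was 11.81, 11.52 and 5.87 at 11 months and 5.34, 7.97, 8.08, 10.75 and 8.13 at 14 months. The 11-month tumour 3 and 14-month tumour 1 were lowest, and 11-month tumours 1 and 2 sat just under the controls. With the ages combined it fell by 3.43 on the log2 scale (SE 1.06, 95% interval -5.75 to -1.10; limma adjusted p = 0.0421). An exact two-sided permutation of tumour and control labels within each age gave p = 0.0125, which like those below is not adjusted for the number of genes. Neither age passed alone: the change was -2.64 at 11 months (limma adjusted p = 0.463) and -4.21 at 14 months (0.0528). The call with the ages combined was lost when any 1 of the 5 controls, or 14-month tumour 1, 2, 3 or 5, was left out. The adjusted p over all 13 such fits ran from 0.02 to 0.117. It was also lost without both nearly identical controls (0.165), with only the arrays that have a number in the title (0.143) and with 14-month tumours 1 and 2 averaged (0.0537). Without the 3 tumours that stood apart the change was -5.70. The second probe set gave -3.45.

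Slco1b2, the liver-specific carrier of bile acids, bilirubin and statins, had a mean change close to that of Slc10a1 but did not pass the adjusted threshold. In the controls its log2 level was 12.34 and 12.62 at 11 months and 12.34, 12.50 and 12.21 at 14 months. In the tumours it was 11.40, 12.57 and 4.93 at 11 months and 7.97, 8.64, 5.49, 12.07 and 9.25 at 14 months. In 7 of the 8 tumours it was below every control, and 11-month tumour 2 lay within the controls. Its log2 fold change was -3.26 (SE 1.31, 95% interval -6.12 to -0.39; limma adjusted p = 0.0973), and the exact permutation within ages gave p = 0.0375. Its SD over the tumours was 2.88, against 0.16 over the controls, and only 14 of all genes had a larger SD over the tumours. Without the 3 tumours that stood apart the change was -6.03. Leaving out only 11-month tumour 2 or 14-month tumour 4 brought the adjusted p to 0.0473 and 0.0475. Of its 5 probe sets, 3 gave changes of -3.26, -3.31 and -3.10. The other two, whose values were all below the median gene level, gave -0.39 and -0.62, the latter past the threshold in the fit of all probe sets (limma adjusted p = 0.016).

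The promoters of Slc10a1 and Slco1b2 are shown together because both genes were highest in the same 3 tumours. Slco1a4, Abcb11, Abcb4 and Abcc3 were highest in those 3 tumours too, and the Slco1a4 and Abcb4 windows held 0 matches. A link between motifs and levels was not tested. The Slc10a1 window (chr12:80968656-80968955, minus strand) held CAAAGTC 173 bases before the start and the STAT5 site TTCTCTGAA 53 bases before it. A second start of Slc10a1 in the table had 0 matches. The Slco1b2 window (chr6:141629268-141629567, plus strand) held the STAT5 site TTCTGAGAA 206 bases and TCACTGA 58 bases before the start.
Slc10a1: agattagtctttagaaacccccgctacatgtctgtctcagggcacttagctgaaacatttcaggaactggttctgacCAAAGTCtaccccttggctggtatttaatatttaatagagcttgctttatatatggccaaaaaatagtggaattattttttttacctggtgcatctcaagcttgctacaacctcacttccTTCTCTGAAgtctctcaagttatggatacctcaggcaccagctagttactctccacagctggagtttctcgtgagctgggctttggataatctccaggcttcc
Slco1b2: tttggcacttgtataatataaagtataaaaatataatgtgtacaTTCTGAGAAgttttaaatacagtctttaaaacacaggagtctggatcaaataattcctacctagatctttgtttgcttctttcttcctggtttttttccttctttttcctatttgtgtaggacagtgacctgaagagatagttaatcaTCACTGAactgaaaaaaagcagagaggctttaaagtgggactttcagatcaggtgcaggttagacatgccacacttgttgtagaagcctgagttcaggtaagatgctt

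Slco1a4, an organic anion carrier found in liver and at the blood-brain barrier, went both ways. Its log2 level in the controls was 9.72 and 9.70 at 11 months and 8.48, 9.59 and 9.40 at 14 months. In the tumours the lowest was 6.07, the median 7.36 and the highest 10.88. It was below every control in 6 tumours, and 11-month tumour 1 (10.88) and 14-month tumour 4 (10.35) were above every control. The fitted log2 change was -1.42 (SE 0.80, 95% interval -3.18 to 0.34; limma adjusted p = 0.221). Without 11-month tumour 1 alone it was -2.08, which passed (limma adjusted p = 0.0421). Without the 3 tumours that stood apart it was -2.84.

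Slco1b2, Slco1a4 and Slco1a1 lie in this order in 1 cluster on chromosome 6, with Slco1c1 on one side and Slco1a6 and Slco1a5 on the other. All 8 tumours were below every control for Slco1a1, 7 for Slco1b2 and 6 for Slco1a4. The neighbour Slco1a6 had a log2 fold change of 1.55 (SE 0.54, limma adjusted p = 0.0636), with tumour levels from 3.05 to 6.23 and control levels from 2.83 to 3.14. It was above every control in 6 tumours, and 11-month tumours 1 and 2 lay within the controls. Slco1c1 and Slco1a5 had values near -0.05 and -0.07 and stayed between 2.97 and 4.01 on all arrays.

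**Figure D2:**
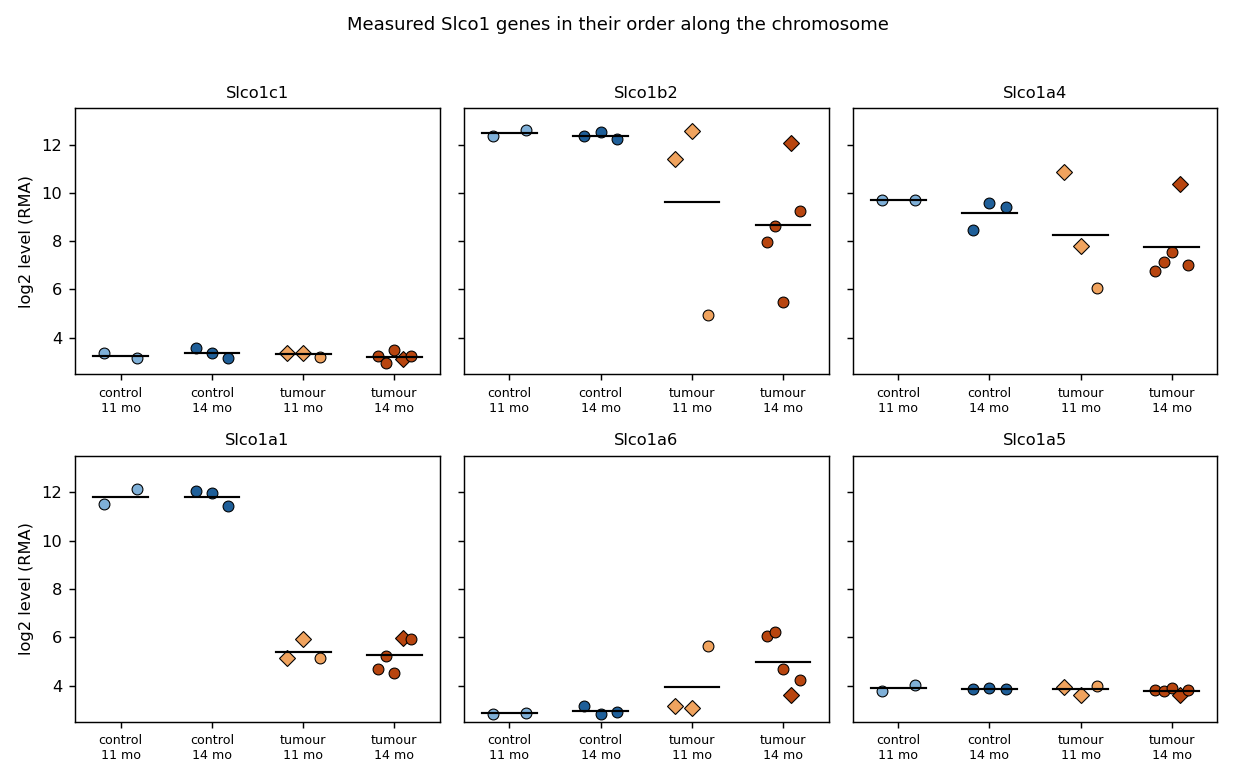
Log2 level (vertical axis) of the 6 measured Slco1 genes of the cluster, in chromosome order, on the 13 arrays by group; points are arrays, bars group means, and diamonds 11-month tumours 1 and 2 and 14-month tumour 4. Slco1a1 is low in all 8 tumours, while its neighbours Slco1a4 and Slco1b2 keep or exceed control levels in some.

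Abcb11, the bile salt export pump, is the main canalicular route of bile salts into bile. Its log2 level in the controls was 11.07 and 11.80 at 11 months and 11.42, 11.13 and 10.91 at 14 months. In the tumours it was 11.22, 10.75 and 8.17 at 11 months and 9.20, 9.05, 8.28, 12.21 and 8.95 at 14 months. In 6 tumours it was below every control, 11-month tumour 1 lay among the controls, and 14-month tumour 4 was above them. The log2 fold change was -1.50 (SE 0.68, 95% interval -2.99 to -0.01; limma adjusted p = 0.135). It passed with array weights (-1.61, limma adjusted p = 0.0323) and without 14-month tumour 4, when the change was -1.83 (limma adjusted p = 0.0183). Without all 3 tumours that stood apart it was -2.77.

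The Abcb11 promoter is shown because this gene is a known target of the bile acid receptor. Its window (chr2:69342567-69342866, minus strand) held TCACTGA, the same letters as in the Slco1b2 window, 91 bases before the start.
Abcb11: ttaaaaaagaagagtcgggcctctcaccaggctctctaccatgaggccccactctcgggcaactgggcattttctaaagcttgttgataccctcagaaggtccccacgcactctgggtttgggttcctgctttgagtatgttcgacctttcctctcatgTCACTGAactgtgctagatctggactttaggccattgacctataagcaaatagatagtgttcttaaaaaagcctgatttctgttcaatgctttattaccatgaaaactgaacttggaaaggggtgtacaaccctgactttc

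Abcb4, the floppase that moves phosphatidylcholine into bile, ordered the tumours exactly as Abcb11 did, from 11-month tumour 3 (8.30) to 14-month tumour 4 (12.02). In the controls its log2 level was 10.75 and 10.91 at 11 months and 10.65, 10.60 and 10.59 at 14 months. Of the tumours, 5 were below every control and 3 were above: 11-month tumours 1 (11.72) and 2 (10.97) and 14-month tumour 4. Its log2 fold change was -0.75 (SE 0.66, 95% interval -2.19 to 0.70; limma adjusted p = 0.433). Without those 3 tumours, the only ones above every control, it was -2.06, so the larger fall follows from the choice.

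Abcc2, the canalicular exporter of conjugated bilirubin and glutathione conjugates, was the member closest to the controls. Its log2 level in the controls was 10.67 and 10.35 at 11 months and 9.95, 9.92 and 10.75 at 14 months, and in the tumours the lowest was 9.62, the median 10.29 and the highest 11.15. Of the tumours, 3 were below every control, 1 above and 4 within, so the groups overlapped widely. The log2 fold change was -0.08 (SE 0.26, limma adjusted p = 0.85), and its 95% interval, -0.66 to 0.50, leaves out changes as large as the values of the uptake carriers Slc10a1 and Slco1a1.

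Abcc3, a basolateral exporter of glucuronides and bile acids, overlapped the controls in most tumours. Its log2 level in the controls was 10.91 and 10.26 at 11 months and 9.19, 10.32 and 10.96 at 14 months, so the controls themselves spread over more than 1 unit. In the tumours the lowest was 8.86, the median 9.31 and the highest 10.78. Only 2 tumours were below every control and none was above. Its log2 fold change was -0.68 (SE 0.38, 95% interval -1.52 to 0.16; limma adjusted p = 0.222). Without the 3 tumours that stood apart it was -1.17.

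Abcc4, a basolateral exporter that carries bile acids with glutathione as well as cyclic nucleotides, was the member that rose. In the controls its log2 level was 6.05 and 5.88 at 11 months and 5.51, 5.86 and 5.80 at 14 months. In the tumours it was 7.83, 6.49 and 10.16 at 11 months and 9.59, 8.53, 9.97, 11.01 and 9.74 at 14 months. All 8 tumours were above all 5 controls, least so 11-month tumour 2, and every control was below the median gene level of 6.20. The log2 fold change was 3.12 (SE 0.56, 95% interval 1.90 to 4.34), an 8.69-fold higher level with a limma adjusted p of 0.00366. The rise was 4.04 at 14 months (limma adjusted p = 0.00533; 0.0562 with only the arrays that have a number in the title), and the value at 11 months was 2.20 (0.23). The exact permutation within ages gave p = 0.00179 for Abcc4 and for Slco1a1, the smallest that the 560 rearrangements can give. Abcc4 passed in all 26 alternatives tried and Slco1a1 in all 27 with the ages combined, counting the permutation at its unadjusted p.

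The Abcc4 promoter is shown as that of the member that rose, a known target of NFE2L2 (NRF2), the factor that binds antioxidant response elements. The window (chr14:118706170-118706469, minus strand) held TGACNNNGC on the opposite strand 25 bases before the start, printed as GCGGGGTCA, and the STAT5 site TTCCCGGAA within the first transcribed bases. A second start of Abcc4 held TGACTCTGC 23 bases before it, and the Abcc2 window held TGACATAGC 98 bases before its start.
Abcc4: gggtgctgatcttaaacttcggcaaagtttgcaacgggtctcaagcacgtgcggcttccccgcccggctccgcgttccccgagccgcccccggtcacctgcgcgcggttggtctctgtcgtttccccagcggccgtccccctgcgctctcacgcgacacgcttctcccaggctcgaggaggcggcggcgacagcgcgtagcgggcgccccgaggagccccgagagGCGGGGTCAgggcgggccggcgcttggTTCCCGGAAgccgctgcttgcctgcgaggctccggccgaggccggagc

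**Figure D3:**
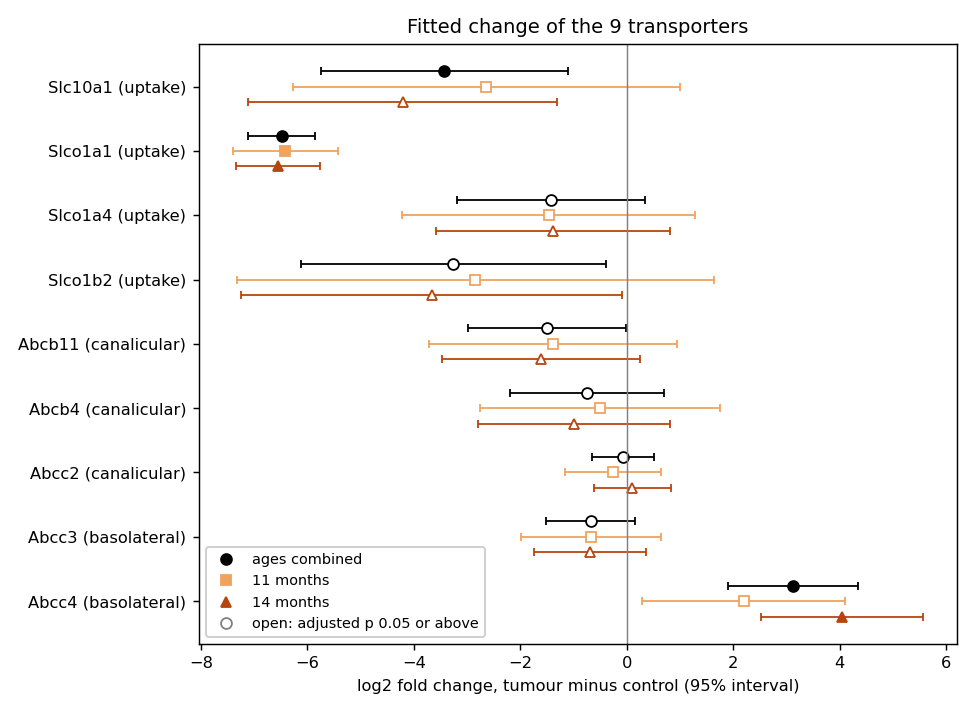
Fitted log2 fold change of the 9 transporters (horizontal axis), tumour minus control, with 95% intervals, for the ages combined and for each age; filled symbols passed the adjusted threshold of 0.05. Slco1a1 at -6.48 and Abcc4 at 3.12 have intervals far from 0, and the wide intervals of Slc10a1 and Slco1b2 follow their spread over the tumours.

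At 11 months 1 of the 9 members passed, Slco1a1, against 1.92% of all genes (1.31% higher and 0.61% lower). At 14 months 2 passed, Slco1a1 lower and Abcc4 higher, against 15.3% of all genes (8.37% higher and 6.88% lower). The change did not pass as different between the ages for any member: 0 of 9 members passed the limma interaction and 0% of all genes, with 0 members and 544 genes at an unadjusted p under 0.05. The 95% intervals of that difference were wide, from -6.22 to 3.08 for Slc10a1 and from -0.59 to 4.28 for Abcc4. Between tumours of the 2 ages, 0 members passed, as did 0.0055% of all genes; at an unadjusted limma p under 0.05 there were 1139 genes and 1 member. That member was Abcc4, which was 1.60 higher at 14 months (SE 0.69, limma adjusted p = 0.776). Between controls of the 2 ages, 0 members and 0% of all genes passed in limma, with 0 members and 326 genes at an unadjusted p under 0.05.

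Set against the mean of the controls of its age, each of the 8 tumours had the same order of roles. The uptake carriers had the lowest median difference, the canalicular exporters a middle one and the basolateral exporters the highest. The order was the same in all 8 tumours with Slco1a1 left out, but it rested on Abcc4: with Abcc3 as the only basolateral exporter it held in 4 tumours and not in the other 4, and Abcc3 was below the control mean in 7 of 8. In 11-month tumour 3 the medians were -6.60, -2.53 and 1.44 log2 units. In 14-month tumour 4, which was just below the controls for Slco1b2 and exceeded every control for all 3 canalicular exporters, they were -0.90, 1.06 and 2.95. The smallest separation was in 11-month tumour 2, at -1.39, -0.05 and 0.13. Roles hold 2 to 4 genes each, so this is a description and no test was made of it.

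**Figure D4:**
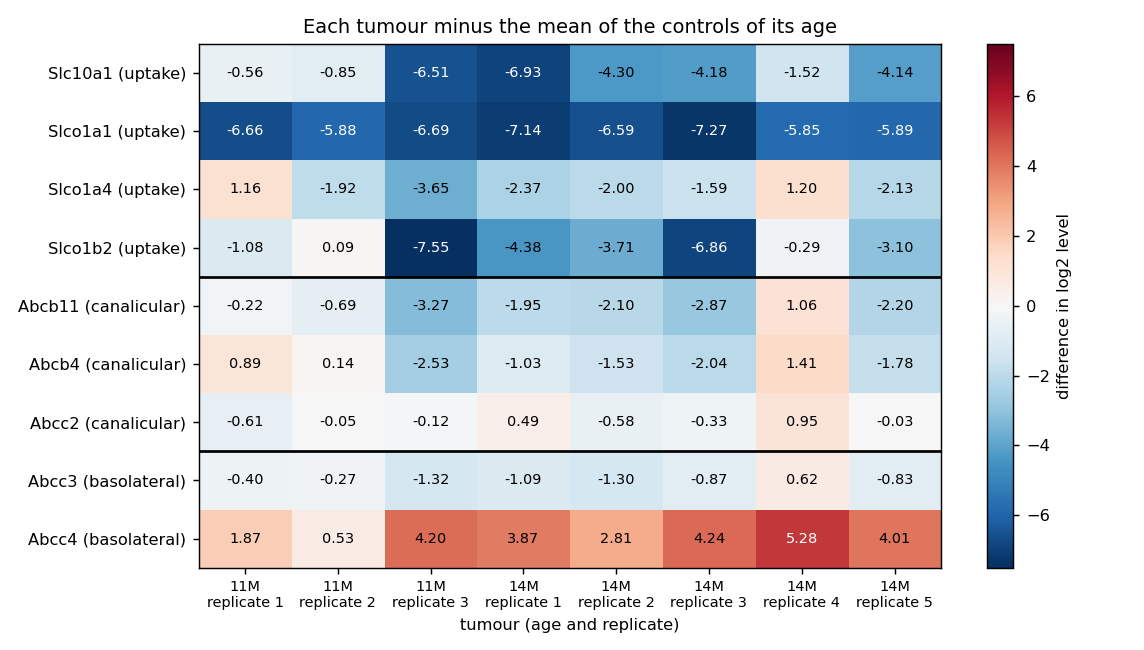
Difference in log2 level between each of the 8 tumours (columns) and the mean of the controls of its age for the 9 transporters (rows, grouped by role); blue is lower and red higher in the tumour. The Slco1a1 row is between -5.85 and -7.27 throughout and the Abcc4 row is positive throughout, from 0.53 to 5.28, whereas the other uptake carriers are near or above 0 in some columns.

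The tumours with the highest levels of most transporters were the same. The 11-month tumours 1 and 2 and 14-month tumour 4 were the 3 highest tumours for 6 of the 9 members (66.7%), as they were for 7.09% of all genes. The exceptions were Slco1a1, Abcc2 and Abcc4, and for Abcc4 the 11-month tumours 1 and 2 were the lowest tumours while 14-month tumour 4 was the highest. Highest among the tumours was not always near the controls: Slc10a1 was below every control in all 3, and Slco1a4 was 1.92 below the control mean in 11-month tumour 2. Without these 3 tumours 8 of the 9 members passed with the ages combined, all but Abcc2, and so did 30.1% of all genes. Since the tumours left out had the highest values of 6 members, a narrower spread follows from the choice, and the count is a description of the remaining 5 tumours, of which 1 was from 11 months.

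The genes whose log2 levels followed each member most closely over the 13 arrays were ranked by Pearson's r, given with no p; all points share the division into tumours and controls. For Slco1a1 the closest was Hsd3b5, a hydroxysteroid dehydrogenase of male mouse liver (r = 0.994, log2 fold change -7.90, limma adjusted p = 6.4e-06), then Macrod2 (0.989) and Tex12 (0.988). For Slc10a1 they were Crp, which encodes C-reactive protein (0.979), Plpp3 (0.974) and Nox4 (0.973). For Slco1b2 they were the prostaglandin dehydrogenase gene Hpgd (0.984), Dpp4 (0.984) and Chn2 (0.977). Slco1a4 was closest to Pctp (0.968), Setd3 (0.967) and Naa60 (0.962). Abcb11 was closest to the complement gene C8g (0.983), Ces2a (0.98) and Cyp3a25 (0.977), and Abcb4 to Acsm3 (0.966), Cpox (0.963) and again Cyp3a25 (0.962). The exporters Abcc2 and Abcc3 had weaker partners: Ugt2b35 (0.883), Nsun6 (0.873) and Txn1 (0.856) for Abcc2, and Syt1 (0.928), the clock output gene Dbp (0.906) and Fam3c (0.901) for Abcc3. For Abcc4 they were Cdc42se2 (0.963), Mrps26 (0.96) and Ssna1 (0.955), whose own changes were 0.43 to 0.66.

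Of 23 measured regulators of these transporters 7 fell and 1 rose, with a median log2 fold change of -0.33, against 9.81% of all genes lower and 10.3% higher. Without both nearly identical controls 2 fell and 1 rose, and with only the arrays that have a number in the title 1 fell and 1 rose. Nr1h4, the bile acid receptor FXR that drives Abcb11, was below every control in all 8 tumours, at 8.06 to 9.26 against 9.36 to 9.87, a change of -0.96 (SE 0.21, limma adjusted p = 0.00977) that did not pass with the nearly identical controls left out, nor with numbered arrays alone (adjusted p up to 0.0775). Its target Nr0b2 had a value of -0.30 (limma adjusted p = 0.546) and Hnf4a one of -0.12 (0.547), neither past the threshold. The oestrogen receptor Esr1 fell by 2.14, a call kept in all 13 fits with 1 array left out. The growth hormone receptor Ghr fell by 0.96 and the liver factor Cebpa by 0.87, calls kept in 9 and 10 of those fits. Both were lost with only the arrays that have a number in the title. The repressor Bcl6 fell, with a change of -1.50 (limma adjusted p = 0.00808), although only 1 tumour was below every control, because 14-month control 2 was at 7.25. The Bcl6 call was kept in all 13 fits with 1 array left out. It was lost without both nearly identical controls and with numbered arrays alone (limma adjusted p up to 0.0572). Stat5b, which carries the growth hormone signal, fell by 0.53 (limma adjusted p = 0.0391), a call kept in 6 of 13 fits with 1 array left out. Cux2, a factor of the female liver pattern, fell by 0.33 (limma adjusted p = 0.0416), a call kept in 4 of those 13 fits and lost with arrays shifted to 1 median and as the mean of its probe sets, where the value was -0.0213. The drug sensors Nr1i3 (-1.77, limma adjusted p = 0.0542) and Nr1i2 (0.67, 0.201) did not pass. Nfe2l2 was the regulator that rose, by 1.38 (SE 0.27, limma adjusted p = 0.00527), from 9.02 to 10.08 in the controls to 10.59 to 11.88 in the tumours with no overlap. Of 17 measured NFE2L2 target genes 3 rose, Cbr3 (4.21), Srxn1 (2.36) and Hmox1 (1.40), and 1 fell, Osgin1 (-1.26), a share of calls near the 20.1% of all genes. The Hmox1 call was kept in 4 of 13 fits with 1 array left out. The median of the list was 0.51.

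Other carriers went both ways, in shares near the 20.1% of all genes for the exporters. Of 14 other measured uptake carriers 3 fell and 2 rose, against 9.81% of all genes lower and 10.3% higher. The organic anion transporter Slc22a7 (-2.76), the ileal-type bile acid carrier Slc10a2 (-2.67) and Slco2b1 (-1.68) fell. With 1 array left out, the Slc10a2 call was kept in 7 of 13 fits and the Slco2b1 call in 9. The lactate carrier Slc16a1 (1.39) and Slco3a1 (0.73) rose. Of 18 other exporters, the conjugate exporter Abcc1 rose, by 1.42 (limma adjusted p = 0.00884), above every control in all 8 tumours as Abcc4 was. Abcc6 (-1.61), the cation extruder Slc47a1 (-1.43) and the copper pump Atp7b (-0.55) fell. Of 19 genes of bile acid synthesis and conjugation 9 fell and none rose, with a median of -1.08, against 9.81% of all genes lower. Examples were Akr1c6 (-3.89), the 12-alpha-hydroxylase Cyp8b1 (-2.53) and Cyp2c70, which makes muricholic acids in mice (-2.08). With 1 array left out, the Akr1c6 call was kept in 4 of 13 fits (adjusted p up to 0.108), that of Cyp8b1 in 6 (up to 0.111) and that of Cyp2c70 in all 13. Cyp7a1, the rate-limiting enzyme, had a value of -1.53 that did not pass (limma adjusted p = 0.0713). Of 15 measured genes on a list of canalicular scaffold and trafficking genes, 3 fell and 2 rose, against 9.81% of all genes lower and 10.3% higher. The scaffold genes Pdzk1 (-1.36, kept in 8 of 13 such fits) and Slc9a3r1 (-0.69) and the adhesion gene Ceacam1 (-0.999) fell. Vipas39 (1.55) and Msn (0.95) rose.

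These list results moved with the arrays used, as did the count of all genes that passed. Without both nearly identical controls, 1 of 19 synthesis genes fell and 0 of 14 other uptake carriers passed. Of 18 other exporters 2 fell and 0 rose, and of 15 scaffold genes 0 fell and 1 rose. Of 17 NFE2L2 targets 4 rose and 0 fell. Of all 18193 genes 1368 passed in that fit. The median change of the synthesis genes was then -0.99, against -1.08 with all arrays. Without the 3 tumours that stood apart, the median was -1.45 for the synthesis genes and -0.66 for the regulators. It was -0.22 for the other exporters and 0.47 for the NFE2L2 targets. With only the arrays that have a number in the title, 4 synthesis genes fell, while 1759 of all 18193 genes passed, against 3657 with all arrays.

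**Figure D5:**
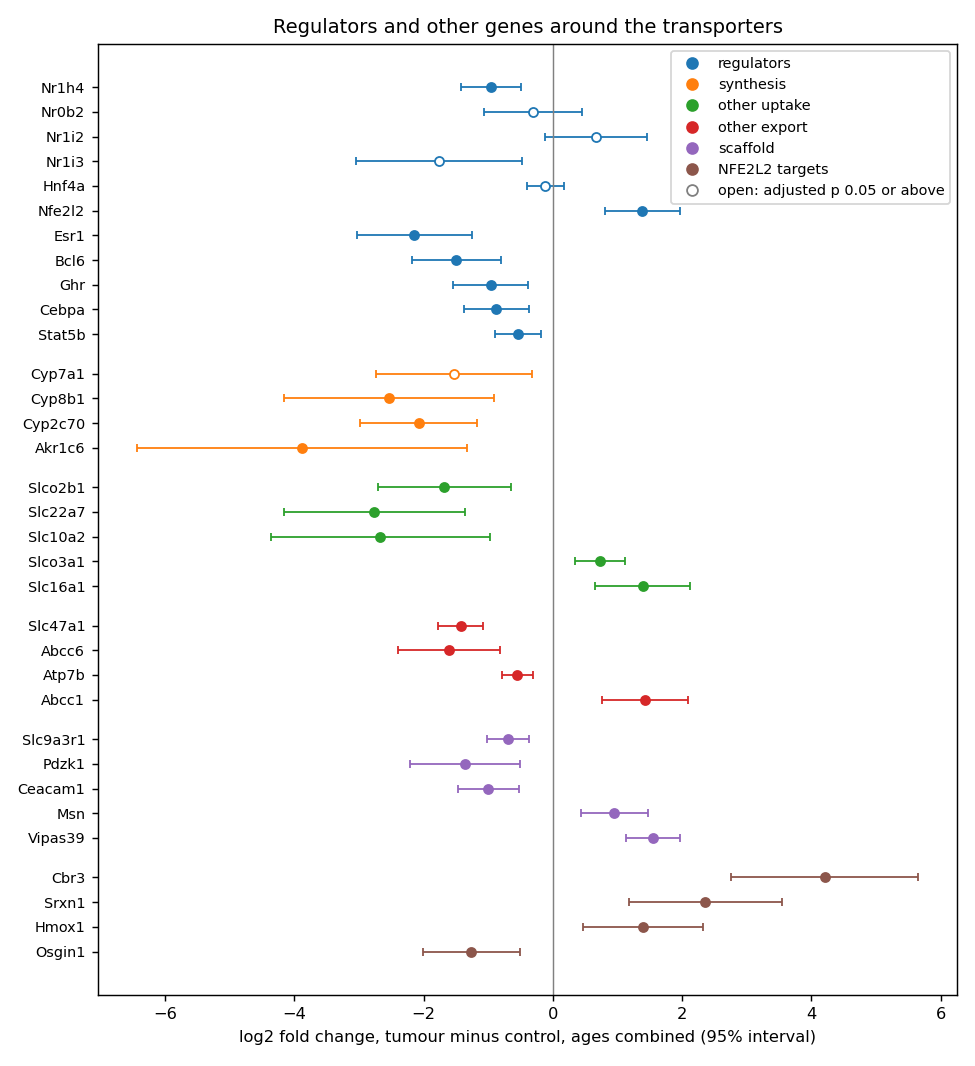
Log2 fold change (horizontal axis), tumour minus control with the ages combined, and 95% interval of named regulators, bile acid synthesis genes, other carriers, scaffold genes and NFE2L2 targets; filled symbols passed the adjusted threshold of 0.05. Nr1h4 at -0.96 and the synthesis genes lie left of 0, and Nfe2l2 at 1.38, Abcc1 at 1.42 and Cbr3 at 4.21 lie right of it.

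Markers of other cell types also moved, and their part in the transporter values was not tested. The 9 measured cholangiocyte markers had a mean level of 5.51 to 6.55 in the tumours and 4.73 to 5.52 in the controls; Prom1 (4.53) and Tspan8 (4.19) rose and Slc10a2, on both lists, fell, while Krt7, Epcam and Cftr were below the median gene level on every array. In 11-month tumour 2 Krt19 reached 6.48 and Sox9 8.02, and Cldn7 was above every control in all 8 tumours (limma adjusted p = 0.0538). With the ages combined, Sox9 (0.38), Krt7 (0.14), Cftr (0.12), Krt19 (0.06) and Epcam (-0.04) did not pass. The median change of the cholangiocyte markers was 0.14. Mean macrophage marker levels over 11 genes ran from 7.05 to 9.29 in the tumours and 8.30 to 8.71 in the controls. The median change of these genes was -1.09. Cd68, C1qa and C1qb rose and Cd163 fell by 4.07. Clec4f (-2.16), Timd4 (-1.87), Vsig4 (-1.86), Cd5l (-1.28) and Marco (-1.09) had lower values that did not pass. Adgre1 (0.91) and Csf1r (0.27) had higher values that did not pass. Endothelial markers (9 genes) ran from 6.93 to 7.99 against 7.28 to 7.47, with 3 higher, and stellate cell markers (9 genes) from 7.58 to 9.21 against 7.52 to 8.18, with 3 higher and 1 lower. Lymphocyte markers (8 genes) ran from 5.04 to 5.74 against 5.05 to 5.29; 0 passed, and Cd8a, Cd79a, Ms4a1 and Ncr1 were below the median gene level throughout. Of the hepatocyte markers 1 of 10 passed, Apoh, which fell by 0.41.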

How the data were processed

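The deposited log2 values came from total RNA on one-colour Affymetrix arrays; per the submitters' processing notes the authors used RMA and Partek, with versions not given in the sources used here. No column was left without a sample (0). Of 45101 probe sets, 34945 named 1 gene, giving 18193 genes, each read through the probe set with the highest mean over the 13 arrays. RMA had already removed background and equalised the arrays, which compresses low values. Precision is limited by the number of arrays. limma 3.58.1 in R 4.3.3 fitted 4 group means on all 13 arrays with empirical Bayes spread; p-values were adjusted over all 18193 genes, threshold 0.05. Python 3.11.15 made the tables. The fit was tested on simulated data. The members and lists were chosen with earlier results of these data known. Named genes are the members, the regulators that passed and some regulators and 1 enzyme set by name, the 3 largest changes past the threshold in each direction of each other list, and the 3 genes most like each member. Some other genes of the lists are given beside them, outside this rule. Alternatives changed normalization, probe set, filter, spread, weights, arrays and threshold. Listed genes without a probe set of their own were not analysed here, nor were protein sequences, and 1 planned promoter motif is not reported here.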

Additional observations from a re-analysis of the deposited data

Results flagged for a closer look

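A total of 4 values stood far from the other samples of their group, by the gap to the nearest value over the whole range. The 27 groups were the 5 tumours of 14 months, all 8 tumours and all 5 controls, for each of the 9 members. Chance alone flags about 1 group in 20, but these groups share samples and so are not separate. Of the 4 values, 3 belonged to 14-month tumour 4, which was far above the other tumours of its age. Its Slco1a4 level was 10.352 against 6.782 to 7.561, its Abcb11 level 12.21 against 8.284 to 9.202, and its Abcc3 level 10.784 against 8.864 to 9.328. Among the controls, Slco1a4 was lowest in 14-month control 1, at 8.476 against 9.397 to 9.725 in the other 4.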

How the results depend on the processing

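No paired analysis was possible because the labels give no shared replicate numbers. With the ages combined, Slco1a1 kept its direction and its call in all 27 alternatives tried and Abcc4 in all 26. Slc10a1 kept its direction in all 27 and its call in 15. These counts include other probe sets, where a gene has them, and the exact permutation, whose p was not adjusted. In the 25 refits without those, Slco1a1 and Abcc4 kept the call in all and Slc10a1 in 13. The 3 members past the threshold became 5 with array weights (Slco1b2 and Abcb11 then had adjusted p of 0.0349 and 0.0323), 8 without the 3 tumours that stood apart and 2 to 5 with 1 array left out; the 3657 genes became 1759 with only arrays that have a number in the title, 1368 without both nearly identical controls, 1443 at an adjusted p under 0.01, 1224 with a change of at least 2-fold and 1814 to 4359 with 1 array left out. At 11 months 1 member became 0 when only the arrays compared were fitted (Slco1a1 then had an adjusted p of 0.0738) and 7 without the 3 tumours, which leaves 1 tumour assumed to vary like the other groups; it stayed at 1 with any array left out. The 349 genes became 232 with 14-month tumours 1 and 2 averaged, 55 with numbered arrays, 0 with only the arrays compared (limma), 35 without both controls, 2269 without the 3 tumours, 42 at 0.01 and 21 to 731 with 1 array left out. At 14 months 2 members became 5 with array weights, 1 with numbered arrays (Abcc4 then had an adjusted p of 0.0562), 7 without the 3 tumours and 2 to 4 with 1 array left out. The 2775 genes became 5659 with array weights, 249 with numbered arrays, 874 without both controls, 4792 without the 3 tumours, 657 at 0.01, 1199 at 2-fold and 922 to 3537 with 1 array left out.

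Signs turned only for values that had not passed with all arrays. Abcc2 was 0.11 with numbered arrays and 0.14 without both controls (-0.18 to 0.0573 with 1 array left out), and at 14 months -0.11 without the 3 tumours (-0.11 to 0.37). Abcc3 at 14 months was 0.0439 with numbered arrays, and Abcb4 at 11 months ran from -1.20 to 0.51 with 1 array left out. Setd3 was 0.0243 and Txn1 -0.19 as means of their probe sets, Txn1 -0.0234 without the 3 tumours (-0.0063 to 0.13 with 1 array left out), Nsun6 -0.0648 to 0.19 with 1 array left out, and Ugt2b35 0.0237 without both controls. The cause of these changes was not tested. Low signals with no detection call limit the values of Slco1a1 in tumours and of Abcc4 in controls. Repeating the quantile step or shifting arrays to 1 median left the 3 member calls in place and the median of all genes at -0.0554 and -0.0466.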

Other observations

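Target genes of the drug sensors CAR and PXR were also measured; none of 11 passed in limma with the ages combined (median -0.01), and the 2 genes below were chosen after their values were seen. Cyp3a11, a steroid and bile acid hydroxylase, had log2 levels of 13.91 to 14.20 in the controls. It was 14.21, 14.11 and 14.39 in 11-month tumours 1 and 2 and 14-month tumour 4, and 10.31 to 12.79 in the other 5 tumours. Cyp2b10, a classic CAR target, ranged from 5.66 to 9.49 in the controls and from 5.04 to 12.16 in the tumours, with 4 tumours above every control and 1 below.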
